A study of Mus musculus with 44 samples.

Results

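The interleukin-6 (IL-6) family was followed through fibroblasts of the normal mammary gland and of mammary tumors. Its members here were 5 cytokine genes, Il6, Lif, Il11, Clcf1 and Ctf1, and 5 receptor genes, Il6ra, Il6st, Lifr, Osmr and Il11ra1. The family was chosen with earlier results of these data known, and the rows of its members were taken by gene symbol. All 10 were among the 55486 genes of the deposited count table and among the 16601 genes that passed the filter on low counts. Fibroblasts were sorted as cells without EpCAM, CD49f, CD31 and CD45 from female recipient mice that carried En1-Cre and the mTmG reporter, in which GFP marks cells of the En1 lineage. These recipients had been transplanted with mammary tissue of control mice, of WB1P donors (WapCre;Brca1F/F;Trp53F/F) or of WB1P-Myc donors, which also carry a Myc transgene in Col1a1. The labels call the control group wildtype. For control transplants into these recipients, the study names Cdh1F/F;PtenF/F donors without WapCre. Fibroblasts of the control transplants are called NFs and those of the tumors CAFs. The recipients kept their own fat pad, the deletions and Myc belong to the donor epithelium, and all groups share the Cre and the reporter. The labels give neither an age nor a tumor stage. Each recipient gave up to 4 sorted populations by GFP and by CD26, a cell surface peptidase encoded by Dpp4.

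The table held 44 libraries of 13 recipients, with 12 libraries from 3 control mice, 16 from 5 WB1P mice and 16 from 5 WB1P-Myc mice. Each control label carries a pair of numbers (82/83, 49/52 and 44/46) and was counted as 1 mouse, and the WB1P-Myc mice 23 and 69 carry an extra mark, 8x8. The labels do not explain the mark. Per the study's methods, 8 × 8 mm is the size of an advanced tumor, short of end stage, so that these 2 tumors may have been smaller than the others. The study's figure legend, however, describes the tumors of these fibroblasts as end stage. It also counts 4 WB1P-Myc mice, where the labels give 5. Counts of the libraries of each mouse and CD26 class were summed into 25 sums, from 3 control, 5 WB1P and 5 WB1P-Myc mice for CD26- cells and from 3, 4 and 5 mice for CD26+ cells, since WB1P mouse 10 had no CD26+ library. The sums held 5790599 to 29498005 counts, and 6 of them rested on a single library. Values are given as CPM, the counts of a gene scaled to a common library total. A gene was called where the Benjamini-Hochberg adjusted p of edgeR's quasi-likelihood test over all tested genes was under 0.05, and adjusted p below are from that test unless another is named. All comparisons of CAFs with NFs within a CD26 class share the same 3 control mice, so that they are not independent of each other.

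Cytokines of this family signal through receptor complexes that contain gp130, the product of Il6st. IL-6 and IL-11 first bind their own receptor chains, encoded by Il6ra and Il11ra1. LIF, cardiotrophin-1 (Ctf1) and cardiotrophin-like cytokine factor 1 (Clcf1) use the LIF receptor together with gp130, and oncostatin M uses Osmr with gp130. Janus kinases on these chains phosphorylate STAT proteins, chiefly STAT3, which turn on acute phase and survival genes as well as the feedback inhibitor Socs3. Fibroblasts of inflamed tissue and of tumors are known as a source of IL-6, LIF and IL-11.

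The sort was visible in the RNA. Dpp4 measured 234 to 805 CPM in CD26+ sums and 0.62 to 15.3 CPM in CD26- sums. Summed over 7 fibroblast genes, every sum held 21500 to 59400 CPM. Single genes of this list moved both ways. Pdgfra, Dcn and Lum fell in CD26- CAFs of both models, and Pdgfrb fell in CD26+ WB1P CAFs. Col1a1, Col1a2 and Vim rose in WB1P CAFs of both classes, and Col1a1 and Col1a2 in CD26+ WB1P-Myc CAFs. The 9 immune genes of a marker list summed to 13.7 to 250.0 CPM, 5 endothelial genes to 8.2 to 71.8 CPM and 6 epithelial genes to 0.364 to 168.0 CPM, and no gene of the marker lists was at or under 3 counts in every sum. Markers of other cell types moved with the groups. All 6 pericyte genes (Rgs5, Cspg4, Kcnj8, Abcc9, Mcam and Notch3) rose in CD26- CAFs of both models, and CD26- NFs held 203 to 370.0 CPM of them in sum, the CD26- CAFs of WB1P tumors 1820 to 5280 CPM and those of WB1P-Myc tumors 2350 to 9070 CPM, against 155 to 393 CPM in the CD26+ sums of all 3 transplants. Of the immune genes, Csf1r, a receptor gene of macrophages, rose in all 4 comparisons of CAFs with NFs, from a mean of 2.27 to 9.46 and 12.9 CPM in CD26- and from 1.53 to 8.15 and 10.3 CPM in CD26+ WB1P and WB1P-Myc CAFs. Adgre1 rose in CD26- CAFs of both models, Itgam in those of WB1P-Myc tumors, and the T cell gene Cd3e in CD26+ CAFs of both models (means 67.2 and 71.1 CPM). Cd79a fell in CD26- WB1P CAFs and Cd68 in CD26+ CAFs of both models. The immune sums were 19.6 to 25.7 CPM in CD26- NFs, 13.7 to 62.6 and 23.2 to 80.2 CPM in CD26- WB1P and WB1P-Myc CAFs, 18.5 to 31.5 CPM in CD26+ NFs and 61.5 to 147 and 21.7 to 250.0 CPM in CD26+ CAFs. Of the endothelial genes, 1 to 3 fell in each comparison and Emcn rose in CD26- CAFs, and of the epithelial genes 0 of 6 were called. The part of these cells in the results for the members was not tested. Genes known to respond to tissue dissociation, 10 in all, summed to 5570 to 17300 CPM, and 0 to 2 of them fell and 1 rose in each comparison of CAFs with NFs. In sorted bulk samples, fewer cells of a type and less RNA per cell cannot be told apart.

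Positions are those of GRCm38. Among the cytokines, Il6 lies on chromosome 5 (30013114 to 30019981, plus strand), Lif on chromosome 11 (4257557 to 4272514, plus strand) and Il11 on chromosome 7 (4772373 to 4782859, minus strand), and none of these overlaps another gene. Clcf1 on chromosome 19 (4214238 to 4223490, plus strand) overlaps AC109138.7 on its own strand and Gm26115 on the other. Ctf1 on chromosome 7 (127712736 to 127718192, plus strand) overlaps Ctf2 on the other strand. Of the receptor genes, Il6st lies on chromosome 13 (112464070 to 112510086), with Lifr (7090614 to 7197489, plus strand) and Osmr (6813577 to 6874969, minus strand) both on chromosome 15. Il6ra on chromosome 3 (89864059 to 89913196, minus strand) overlaps Gm42809 on the other strand. Il11ra1 on chromosome 4 (41699989 to 41769474, plus strand) overlaps Galt on its own strand and 5 genes on the other, and it has a near-identical copy, Il11ra2. The strand setting of the counting is not given in the sources used here, so values of Il11ra1, Clcf1, Ctf1 and Il6ra are less certain than the others.

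The promoters of Lif, Il6 and Il11 are shown because these were the 3 cytokine genes with the highest levels per length in CAFs and because they carry the same motif of the transcription factor AP-1. Sequences are from RefSeq on GRCm38.p6, and capitals mark the motif TRE, which reads TGACTCA or TGAGTCA on the 2 strands. The window of Il6 is chr5:30012864-30013113 (plus strand, 250 bases, motif from 249 bases before the start, outside any gene). The window of Il11 is chr7:4778142-4778391 (minus strand, 250 bases before a second start at 4778141, motif from 98 bases before it, inside an intron of the longer Il11 transcript). The window of Lif is chr11:4257318-4257556 (plus strand, 239 bases that end where its annotated exon begins, motif from 228 bases before the start at 4257568).
Il6: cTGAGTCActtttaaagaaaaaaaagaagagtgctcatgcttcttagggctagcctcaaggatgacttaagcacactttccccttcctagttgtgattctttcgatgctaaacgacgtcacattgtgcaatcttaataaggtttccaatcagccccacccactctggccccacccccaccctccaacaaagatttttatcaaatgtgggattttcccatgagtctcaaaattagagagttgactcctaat
Il11: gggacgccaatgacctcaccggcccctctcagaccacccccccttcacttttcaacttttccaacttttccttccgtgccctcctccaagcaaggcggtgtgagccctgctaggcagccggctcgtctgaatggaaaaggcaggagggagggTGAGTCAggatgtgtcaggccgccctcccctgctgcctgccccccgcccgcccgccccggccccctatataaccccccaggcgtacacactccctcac
Lif: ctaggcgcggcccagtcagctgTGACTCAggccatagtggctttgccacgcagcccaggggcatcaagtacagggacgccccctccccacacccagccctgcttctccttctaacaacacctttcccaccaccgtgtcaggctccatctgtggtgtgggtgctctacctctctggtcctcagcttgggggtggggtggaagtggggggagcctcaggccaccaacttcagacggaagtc
The motif was found in these 3 of 12 windows of the 9 members matched, with windows from 250 bases before to 50 bases after a start, and in 1709 of all 32851 promoters of that length (5.2%). The core TGACGTCA, found in 1.79% of all promoters, and the STAT motif TTCNNNGAA, found in 8.3%, were in 0 of the 12 windows. A match of letters is a description and shows no binding.

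In CAFs of both models, Lif, Clcf1 and Ctf1 were higher than in NFs, in CD26- and in CD26+ cells alike. Each call of Lif held in 20 of 20 alternative fits. The call of Clcf1 in CD26+ WB1P-Myc CAFs held in 10 of 20. Those of Ctf1 held in 10 of 20 in CD26+ WB1P, 8 of 20 in CD26- WB1P-Myc and 6 of 20 in CD26+ WB1P-Myc CAFs. Osmr rose in 3 of the 4 comparisons. Il6ra fell in CD26- CAFs, and Il11ra1 rose in CD26+ CAFs, and neither change was shown to differ between the CD26 classes. In CD26- cells, 4 members rose and 1 fell in WB1P CAFs, where 17.6% of all tested genes rose and 17.8% fell, and the median log2 fold change was 0.8 over the members and 0.0 over all genes. The counts were again 4 and 1 in CD26- WB1P-Myc CAFs, beside 19.1% and 17.5% of all genes, with medians of 0.81 and 0.02. In CD26+ cells, 5 members rose and 0 fell in WB1P CAFs (17.4% and 16.1% of all genes, medians 1.07 and 0.0), and 4 rose and 0 fell in WB1P-Myc CAFs (17.4% and 17.3%, medians 0.98 and -0.01). With the added limit of an absolute log2 fold change over 2, 1 member remained in each of the 4 comparisons, and it was Lif. Without mice 23 and 69, 5 and 2 members were called in CD26- WB1P and WB1P-Myc CAFs and 3 and 3 in CD26+ CAFs. The calls lost were those of Ctf1 (0.94, adjusted p = 0.155), Il6ra (-1.21, 0.0629) and Osmr (0.92, 0.0666) in CD26- WB1P-Myc CAFs, of Ctf1 (1.2, 0.0612) and Osmr (0.89, 0.0529) in CD26+ WB1P CAFs and of Ctf1 (1.07, 0.121) in CD26+ WB1P-Myc CAFs.

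**Figure D1:**
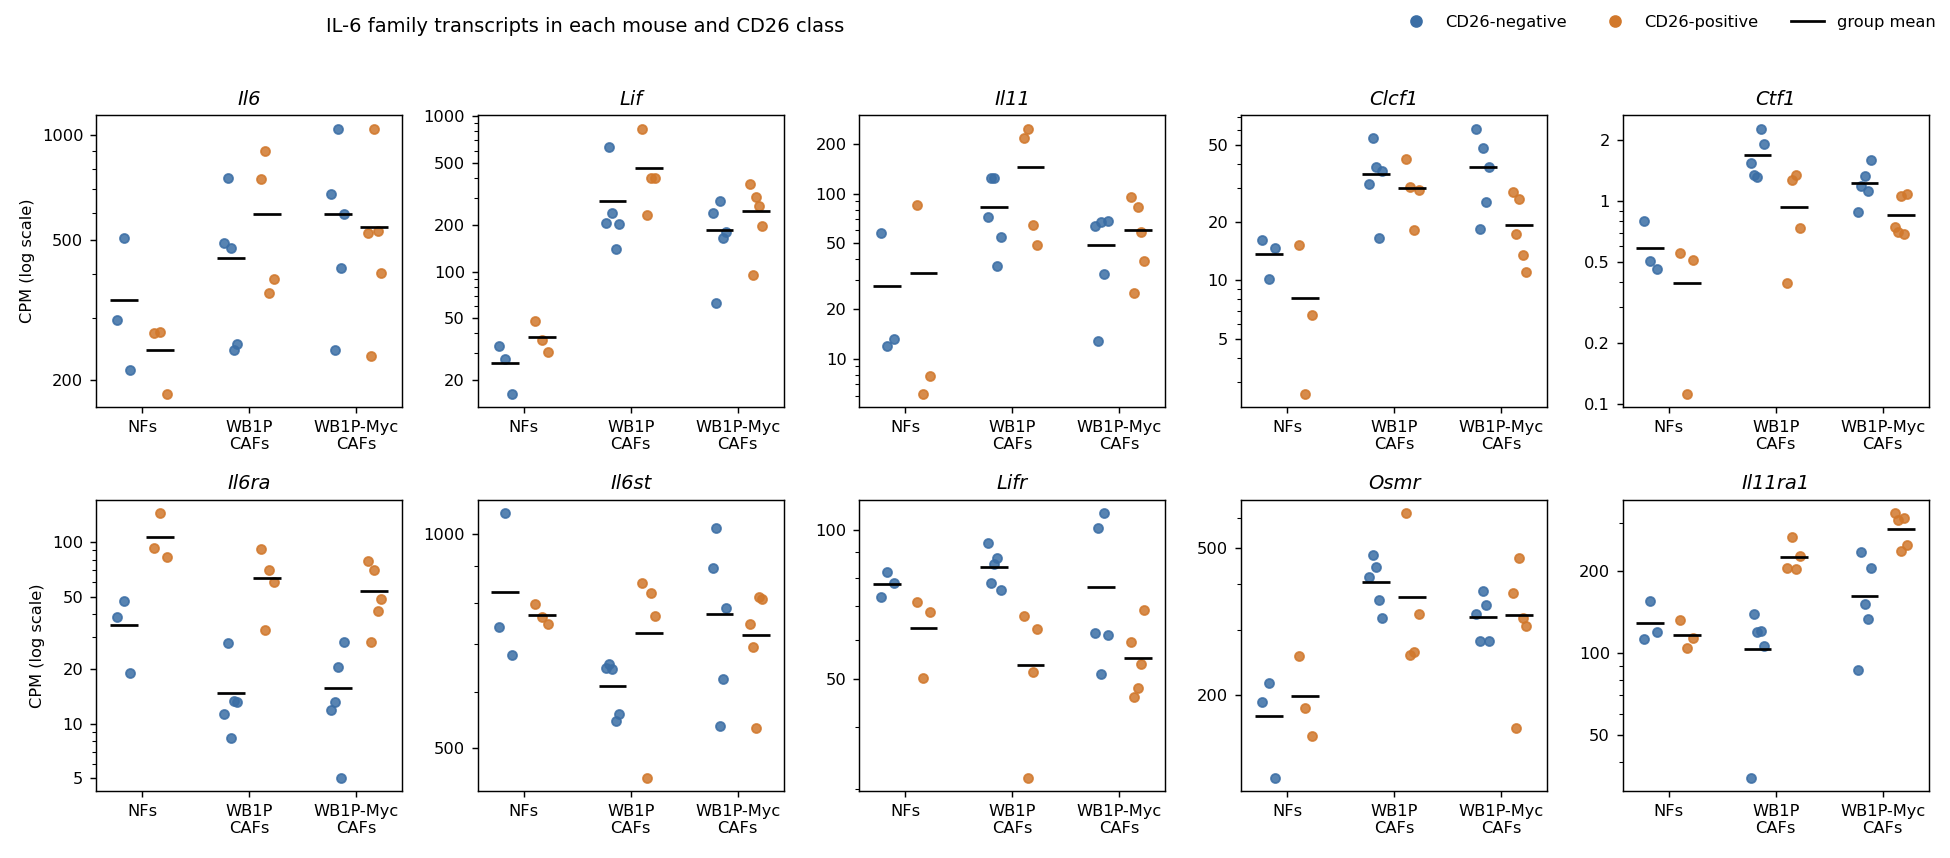
Level of each of the 10 members in every mouse, as CPM on a log scale, for NFs, WB1P CAFs and WB1P-Myc CAFs. Each point is 1 mouse, CD26- cells are blue and CD26+ cells orange, and black bars are group means. Points of Lif in CAFs all lie above those in NFs of the same class, while points of Il6st and Lifr lie close together.

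LIF is a cytokine named for its action on leukemia cells and also acts back on fibroblasts. Lif measured 33.3, 27.2 and 16.4 CPM in CD26- cells of controls 82/83, 49/52 and 44/46. In CD26- CAFs it measured 206, 631, 240.0, 140.0 and 202 CPM in WB1P mice 10, 93, 12, 14 and 35, and 237, 62.7, 285, 164 and 181 CPM in WB1P-Myc mice 21, 67, 95, 23 and 69. The lowest CAF sum, of WB1P-Myc mouse 67, lay above the highest NF sum. The log2 fold change against NFs was 3.47 ± 0.58 (SE, adjusted p = 9.2e-05) for WB1P and 2.86 ± 0.56 (adjusted p = 0.000534) for WB1P-Myc. In CD26+ cells the controls held 48.0, 36.2 and 30.4 CPM, in the same order. WB1P mice 93, 12, 14 and 35 held 834, 233, 399 and 401 CPM, and the WB1P-Myc mice 365, 95.6, 301, 264 and 196 CPM. Again no CAF sum reached down to the NFs, and mouse 67 was the lowest. Lif rose by 3.61 ± 0.59 on the log2 scale in CD26+ WB1P CAFs (adjusted p = 0.000151) and by 2.68 ± 0.56 in CD26+ WB1P-Myc CAFs (adjusted p = 0.00117). These are folds of 11.1 and 7.25 in CD26- cells and of 12.2 and 6.4 in CD26+ cells.

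Clcf1 encodes a cytokine of the LIF receptor branch of the family. It was at 16.2, 10.2 and 14.7 CPM in CD26- NFs. The CD26- WB1P CAFs held 31.3, 54.1, 38.6, 16.5 and 36.8 CPM and the WB1P-Myc CAFs 60.7, 18.4, 48.3, 25.5 and 38.7 CPM. WB1P mouse 14 stood only just above control 82/83, and the groups did not overlap. Clcf1 rose by 1.37 ± 0.48 (adjusted p = 0.0286) and 1.48 ± 0.48 (adjusted p = 0.0196) on the log2 scale. In CD26+ cells, NFs held 15.2, 2.61 and 6.66 CPM, WB1P CAFs 42.4, 30.2, 18.3 and 29.2 CPM, and WB1P-Myc CAFs 28.6, 17.4, 26.3, 13.6 and 11.1 CPM. The WB1P CAFs lay above all NFs (1.88 ± 0.51, adjusted p = 0.00737), whereas WB1P-Myc mice 23 and 69 lay within the range of the NFs (1.25 ± 0.48, adjusted p = 0.0469). The call in CD26- WB1P CAFs was lost without control 49/52, control 44/46 or WB1P mouse 93 (adjusted p = 0.0722, 0.0733 and 0.0616), and that in CD26- WB1P-Myc CAFs without control 49/52 or control 44/46 (0.0515 and 0.0579). In CD26+ WB1P-Myc CAFs it was lost without control 49/52 (log2 fold change 0.86, adjusted p = 0.194), control 44/46 (1.16, 0.149), WB1P mice 10, 12 or 35 (0.0515 to 0.0577), or WB1P-Myc mice 21 or 95 (0.0918 and 0.0819). DESeq2's size factors, no filter on low counts and a fit of the compared groups alone also ended this call.

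Ctf1, which encodes cardiotrophin-1, was a rare transcript, with 3 to 52 counts per sum. CD26- NFs held 0.797, 0.511 and 0.464 CPM, WB1P CAFs 1.55, 1.34, 1.32, 2.28 and 1.92 CPM, and WB1P-Myc CAFs 0.888, 1.19, 1.33, 1.13 and 1.6 CPM. All CAF sums lay above all NF sums. The difference was 1.5 ± 0.41 on the log2 scale for WB1P (adjusted p = 0.00718) and 1.05 ± 0.41 for WB1P-Myc (adjusted p = 0.0483). CD26+ NFs held 0.555, 0.113 and 0.515 CPM, WB1P CAFs 0.398, 1.27, 1.35 and 0.738 CPM, and WB1P-Myc CAFs 0.748, 0.707, 1.06, 0.69 and 1.09 CPM. WB1P mouse 93 fell among the NFs, and the WB1P-Myc CAFs lay above them. The log2 fold changes were 1.2 ± 0.44 (adjusted p = 0.0418) and 1.11 ± 0.43 (adjusted p = 0.0475). Of these calls, the one in CD26- WB1P CAFs held without each mouse in turn. The call in CD26+ WB1P CAFs was lost without control 49/52 (log2 fold change 0.78, adjusted p = 0.19), control 44/46, WB1P mice 12 or 14, or WB1P-Myc mice 67 or 23 (other adjusted p 0.0517 to 0.162), and it was 0.0536 with the mouse as a block. The call in CD26- WB1P-Myc CAFs was lost without controls 49/52 or 44/46, WB1P mice 10, 12 or 35, or WB1P-Myc mice 67, 95, 23 or 69 (adjusted p 0.0515 to 0.169). That in CD26+ WB1P-Myc CAFs was lost without control 49/52 (0.69, adjusted p = 0.22), control 44/46, WB1P mice 10, 12 or 35, or any of the 5 WB1P-Myc mice (other adjusted p 0.0508 to 0.095). With no filter on low counts, every call of Ctf1 but that in CD26- WB1P CAFs was lost. DESeq2's size factors ended the WB1P-Myc calls of both classes, and a fit of the compared groups alone ended the CD26+ calls of both models.

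Il6 was the member with the highest level per length in every group, and none of its 4 comparisons passed edgeR's test as set up here. In CD26- cells it measured 296, 506 and 214 CPM in NFs, 492, 754, 476, 244 and 254 CPM in WB1P CAFs, and 677, 243, 1040, 416 and 593 CPM in WB1P-Myc CAFs. The groups overlapped, with control 49/52 above 4 of the 5 WB1P CAFs. The log2 fold change was 0.39 ± 0.48 (adjusted p = 0.549) for WB1P and 0.81 ± 0.48 (adjusted p = 0.191) for WB1P-Myc. In CD26+ cells the NFs held 273, 274 and 183 CPM, the WB1P CAFs 745, 897, 353 and 389 CPM, and the WB1P-Myc CAFs 525, 234, 1040, 533 and 404 CPM. Here all WB1P CAFs and 4 of 5 WB1P-Myc CAFs lay above the NFs, mouse 67 being the exception. The differences, 1.29 ± 0.51 (adjusted p = 0.0539) and 1.17 ± 0.49 (adjusted p = 0.0675), missed the threshold. The first passed it in a fit with the mouse as a block (adjusted p = 0.0251) and without WB1P mice 14 or 35 (1.48, adjusted p = 0.0405, and 1.42, adjusted p = 0.0464) or WB1P-Myc mice 67 or 95 (0.0355 and 0.0315). The second passed it without WB1P-Myc mouse 67 (1.35, adjusted p = 0.029). DESeq2's Wald test called both CD26+ differences (1.28, adjusted p = 0.0293, and 1.14, adjusted p = 0.0427). So did edgeR with libraries as units (1.19, adjusted p = 0.00706, and 1.11, adjusted p = 0.0101), and the WB1P one was also called in a fit of the compared groups alone (1.31, adjusted p = 0.0391). Libraries as units counts libraries of the same mouse as independent, so that its p-values overstate the evidence. Over all genes it called 7876 and 8074 in these CD26+ comparisons, against 5566 and 5753 with sums per mouse.

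Il11, a cytokine tied to fibrosis, had a wide spread among the NFs. Control 82/83 held 57.9 CPM in CD26- and 85.8 CPM in CD26+ cells, whereas controls 49/52 and 44/46 held 12.0 and 13.2 CPM in CD26- and 6.16 and 7.86 CPM in CD26+ cells. WB1P CAFs held 72.1, 125, 124, 36.3 and 54.4 CPM in CD26- and 218, 247, 64.7 and 49.0 CPM in CD26+ cells. WB1P-Myc CAFs held 63.5, 12.8, 67.5, 32.7 and 67.9 CPM in CD26- and 95.2, 25.1, 83.0, 58.7 and 38.9 CPM in CD26+ cells. In each comparison the groups overlapped through control 82/83, and in CD26- cells also through WB1P-Myc mouse 67. No comparison passed the test, with log2 fold changes of 1.57 ± 0.81 (adjusted p = 0.137) and 2.12 ± 0.86 (0.0598) for CD26- and CD26+ WB1P CAFs and of 0.82 ± 0.79 (0.429) and 0.86 ± 0.79 (0.412) for WB1P-Myc CAFs. Without control 82/83 all 4 did, with 2.71 (adjusted p = 0.0102), 4.34 (0.00115), 1.95 (0.0469) and 3.1 (0.00654) in the same order. The CD26+ WB1P difference was also called without WB1P mouse 35 (2.4, adjusted p = 0.0447), and both WB1P differences were called with the mouse as a block (1.83, adjusted p = 0.0373, and 2.87, adjusted p = 0.00551) and with libraries as units (1.61, adjusted p = 0.0309, and 1.95, adjusted p = 0.0139). DESeq2's Wald test called the CD26+ WB1P one (2.12, adjusted p = 0.0192).

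**Figure D2:**
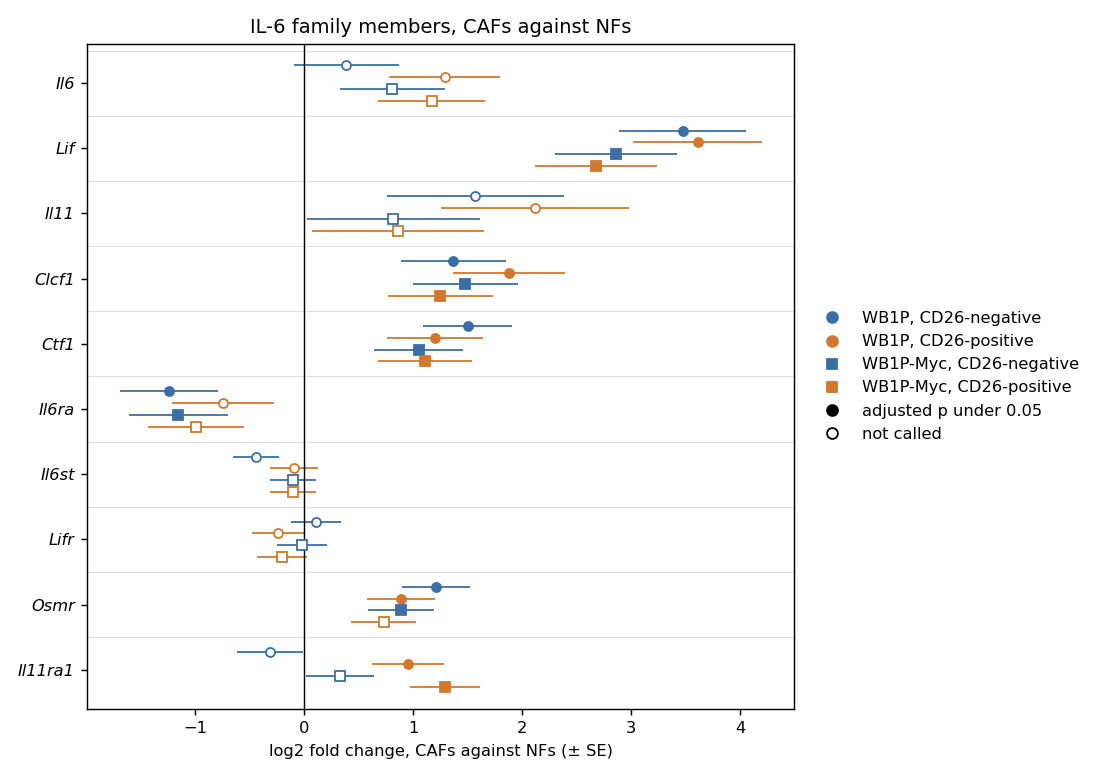
Log2 fold change of each member in CAFs against NFs of the same CD26 class, with error bars of 1 SE. Circles are WB1P and squares WB1P-Myc, blue is CD26- and orange CD26+, and filled symbols have an adjusted p under 0.05. The 4 symbols of Lif are all filled and lie farthest to the right, from 2.68 to 3.61, and those of Il6st and Lifr are all open and close to 0.

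Osmr encodes the chain that gives the complex its specificity for oncostatin M. It measured 191, 215 and 119 CPM in CD26- NFs, 417, 477, 443, 360.0 and 323 CPM in WB1P CAFs, and 331, 279, 382, 349 and 279 CPM in WB1P-Myc CAFs. All CAF sums lay above all NF sums. Osmr rose by 1.21 ± 0.31 on the log2 scale in WB1P (adjusted p = 0.00404) and by 0.89 ± 0.3 in WB1P-Myc (adjusted p = 0.0253). CD26+ NFs held 255, 184 and 155 CPM, WB1P CAFs 620.0, 257, 261 and 330.0 CPM, and WB1P-Myc CAFs 378, 163, 470.0, 322 and 307 CPM. WB1P mice 12 and 14 were barely above control 82/83, and WB1P-Myc mouse 67 lay inside the NF range. The difference was 0.89 ± 0.31 for WB1P (adjusted p = 0.0321) and 0.73 ± 0.3 for WB1P-Myc (adjusted p = 0.0625). The CD26+ WB1P call was lost without WB1P mouse 93 (0.5, adjusted p = 0.168), control 49/52 (0.85, 0.0919) or control 44/46 (0.75, 0.123), and the CD26- WB1P-Myc call without control 44/46 (0.67, 0.142) or WB1P-Myc mouse 23 (0.84, 0.0517). The CD26+ WB1P-Myc difference was called without WB1P-Myc mouse 67 (0.89, 0.0218), WB1P mouse 93 (0.72, 0.0346) or control 82/83 (0.95, 0.0497).

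Il6ra, the binding chain for IL-6, was the only member that fell in CAFs, and the other differences that were below 0 did not pass the test. CD26- NFs held 38.5, 47.4 and 19.0 CPM. WB1P CAFs held 11.3, 27.8, 8.36, 13.3 and 13.2 CPM, and WB1P-Myc CAFs 11.9, 13.2, 20.4, 5.02 and 28.3 CPM. The ranges overlapped only between control 44/46 and WB1P mouse 93 and WB1P-Myc mice 95 and 69. Il6ra fell by 1.24 on the log2 scale in WB1P (SE 0.45, adjusted p = 0.0346) and by 1.15 in WB1P-Myc (SE 0.45, adjusted p = 0.0475). CD26+ cells held more: 93.0, 144 and 82.6 CPM in NFs, 92.0, 32.6, 69.9 and 60.3 CPM in WB1P CAFs, and 79.0, 28.1, 70.4, 41.6 and 48.3 CPM in WB1P-Myc CAFs. In the WB1P-Myc group all CAFs lay below the NFs and in the WB1P group all but mouse 93. The differences of -0.74 ± 0.47 (adjusted p = 0.231) and -0.99 ± 0.44 (adjusted p = 0.0844) missed the threshold. The CD26- WB1P call was lost without controls 82/83 or 49/52 or WB1P mice 10, 12, 14 or 35 (adjusted p 0.0671 to 0.183), and the WB1P-Myc call without controls 82/83 or 49/52, WB1P mice 10, 14 or 35, or WB1P-Myc mice 21, 67, 95 or 23 (adjusted p 0.0508 to 0.212). The CD26- WB1P-Myc call was also lost with no filter on low counts and in a fit of the compared groups alone. The fall in CD26+ WB1P-Myc CAFs was called in such a fit and with libraries as units.

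Il11ra1, the binding chain for IL-11, differed from NFs in the CD26+ class. CD26+ NFs held 132, 104 and 114 CPM, WB1P CAFs 204, 266, 203 and 227 CPM, and WB1P-Myc CAFs 325, 307, 236, 311 and 248 CPM. Every CAF sum lay above every NF sum. Il11ra1 rose by 0.95 ± 0.33 on the log2 scale in WB1P (adjusted p = 0.0293) and by 1.29 ± 0.32 in WB1P-Myc (adjusted p = 0.00421). In CD26- cells the NFs held 113, 155 and 119 CPM, the WB1P CAFs 34.9, 139, 119, 120.0 and 106 CPM, and the WB1P-Myc CAFs 86.8, 234, 151, 133 and 204 CPM. Those groups overlapped, and the differences were -0.31 ± 0.3 (adjusted p = 0.447) and 0.33 ± 0.31 (adjusted p = 0.416). The lowest value, 34.9 CPM, was that of WB1P mouse 10, whose sum was 1 library. The WB1P call in CD26+ cells was lost without any of the 3 controls or without WB1P mice 12 or 35 (log2 fold change 0.85 to 1.03, adjusted p 0.0531 to 0.1), and with the mouse as a block (0.78, adjusted p = 0.116). The WB1P-Myc call was kept without each mouse in turn.

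Il6st and Lifr, the shared signaling chains, were the steadiest members. In CD26- cells Il6st held 739, 1070 and 675 CPM in NFs, 545 to 657 CPM in WB1P CAFs and 536 to 1020 CPM in WB1P-Myc CAFs, and the CD26+ sums held 453 to 853 CPM. Its 4 log2 fold changes against NFs ran from -0.44 ± 0.21 (adjusted p = 0.109, CD26- WB1P CAFs, all below the NFs) to -0.09 ± 0.22 (adjusted p = 0.79). Lifr held 73.2, 82.1 and 78.2 CPM in CD26- NFs, 75.7 to 94.1 CPM in WB1P and 51.1 to 108 CPM in WB1P-Myc CAFs, and 31.5 to 71.4 CPM in the CD26+ sums. Its differences ran from -0.24 ± 0.24 (adjusted p = 0.453) to 0.11 ± 0.23 (adjusted p = 0.736). Over all 25 sums the SD of log2 CPM was 0.298 for Il6st and 0.401 for Lifr, against 1.51 for Lif, 1.36 for Il11 and 1.24 for Il6ra.

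Divided by exon length, the levels put Il6 first in all 6 groups, at 139 ± 62.0 CPM per kb (SD, n = 3) in CD26- NFs and 245 ± 124 CPM per kb (n = 5) in CD26- WB1P-Myc CAFs. Ctf1 was last in all groups, from 0.216 ± 0.134 CPM per kb in CD26+ NFs to 0.923 ± 0.226 in CD26- WB1P CAFs. The place of Lif varied. In CD26- NFs it held 5.89 ± 1.97 CPM per kb, below Il6st (74.6 ± 19.2), Il11ra1 (28.8 ± 5.09), Osmr (14.5 ± 4.16) and Il11 (13.3 ± 12.6) and next to Lifr (7.23 ± 0.414), from which it did not differ beyond the spread. In CD26- WB1P CAFs Lif was second at 65.2 ± 45.4 CPM per kb, a level within the spread of Il6st (55.0 ± 4.9), and in CD26+ WB1P CAFs it held 107 ± 59.1, beside 65.3 ± 16.6 for Il6st. Il6ra stood just above Ctf1 in CD26- CAFs, at 1.71 ± 0.872 (WB1P) and 1.82 ± 1.03 CPM per kb (WB1P-Myc).

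Between the tumor models, edgeR called 0 of the 10 members in either CD26 class, where 0.205% of all genes were higher and 0.307% lower in CD26- WB1P-Myc CAFs and 0% in CD26+ CAFs. In each class 1 member had an unadjusted p under 0.05, Il11ra1 in CD26- cells (0.64 ± 0.26 on the log2 scale, adjusted p = 0.265) and Lif in CD26+ cells (-0.93 ± 0.45, adjusted p = 1.0), and DESeq2's Wald test called 0 in both. Lif was at a mean of 284 CPM in CD26- WB1P CAFs and 186 CPM in CD26- WB1P-Myc CAFs, with overlapping ranges. Il11 was also lower in CD26+ WB1P-Myc than in WB1P CAFs, by a difference of -1.26 ± 0.7 that did not pass the test (adjusted p = 1.0).

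Between CD26 classes, edgeR called Il6ra and Il11ra1 higher in CD26+ CAFs of both models and Lifr lower in those of WB1P tumors. Il6ra was higher in CD26+ than in CD26- cells of the same mouse in 3 of 3 control, 4 of 4 WB1P and 5 of 5 WB1P-Myc mice. The log2 difference was 2.11 ± 0.43 in WB1P (adjusted p = 0.000848) and 1.77 ± 0.41 in WB1P-Myc CAFs (adjusted p = 0.00308), and 1.61 ± 0.52 in NFs, where it missed the threshold (adjusted p = 0.0916) but passed it with the mouse as a block (1.66, adjusted p = 0.00684). Il11ra1 was higher in CD26+ cells in 4 of 4 WB1P and 5 of 5 WB1P-Myc mice, by 1.11 ± 0.28 (adjusted p = 0.00506) and 0.82 ± 0.27 (adjusted p = 0.0313), but in 1 of 3 controls (-0.14 ± 0.34, adjusted p = 0.952). Its WB1P-Myc call was lost without WB1P-Myc mice 21 (0.61, adjusted p = 0.177), 95 (0.85, 0.0666) or 23 (0.72, 0.14), and without both mice marked 8x8 (0.88, 0.134). Lifr was lower in CD26+ cells in 3 of 3, 4 of 4 and 4 of 5 mice, and it was called in WB1P CAFs (-0.65 ± 0.21, adjusted p = 0.0268), though not without WB1P mice 10, 12 or 14 (adjusted p = 0.0575, 0.133 and 0.0955), and not in NFs (-0.3 ± 0.26, adjusted p = 0.747) or WB1P-Myc CAFs (-0.48 ± 0.2, adjusted p = 0.0988; 0.0462 without mouse 69).

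In all, 2 members were higher and 1 lower in CD26+ than in CD26- WB1P CAFs, where 13% of all genes were higher and 13% lower. In WB1P-Myc CAFs 2 were higher and 0 lower, beside 9.29% and 10.7% of all genes. In NFs edgeR called 0, beside 2.67% and 1.49%, with 1 at an unadjusted p under 0.05 and 1 called by DESeq2's Wald test, both of them Il6ra. Among the cytokines, Clcf1 was lower in CD26+ cells in 3 of 3, 3 of 4 and 5 of 5 mice (-0.75 ± 0.51, -0.24 ± 0.42 and -0.98 ± 0.4) and was called in WB1P-Myc CAFs only with the mouse as a block (-0.95, adjusted p = 0.00731; without it 0.0876). The same fit also called 3 further members in WB1P CAFs, Lif (0.72, adjusted p = 0.0164; without it 0.254), Il6 (0.51, 0.0407; without it 0.505) and Ctf1 (-1.01, 0.0236; without it 0.0885). Ctf1 was called without control 49/52 too (-0.89, adjusted p = 0.048), by DESeq2's Wald test (-0.93, adjusted p = 0.0342) and with libraries as units (-0.94, adjusted p = 0.0164).

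**Figure D3:**
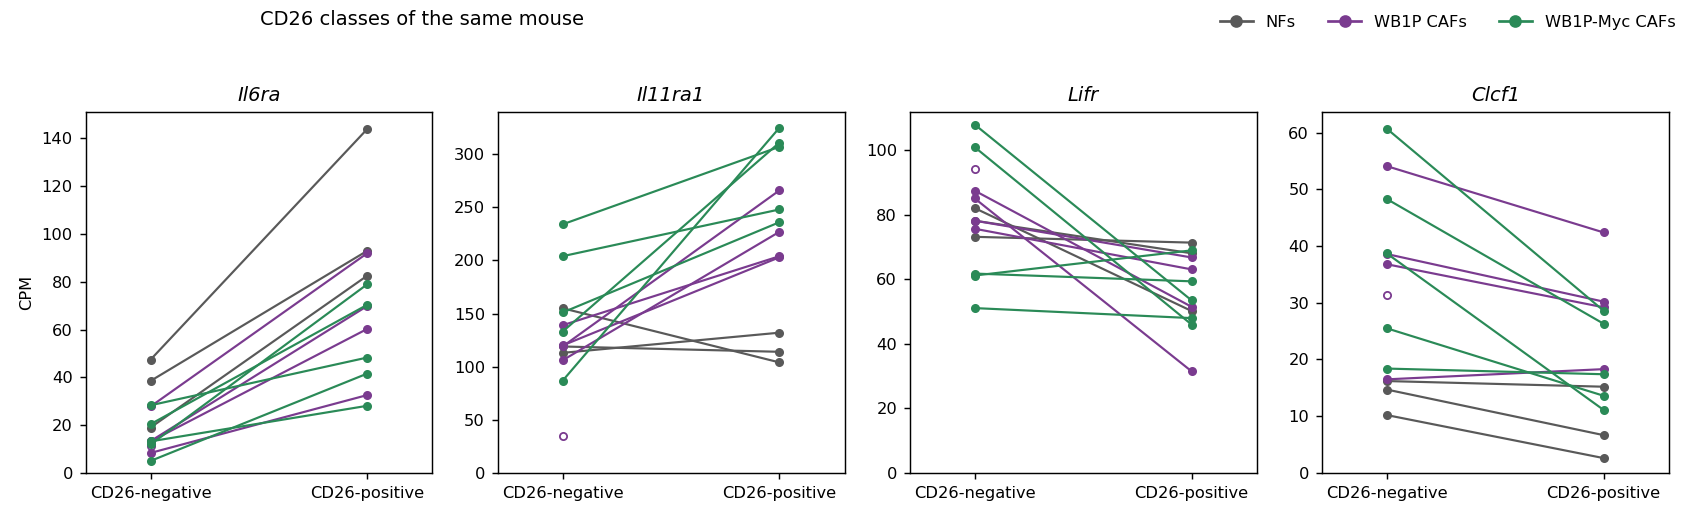
CPM of Il6ra, Il11ra1, Lifr and Clcf1 in CD26- and CD26+ cells on linear axes from 0, where each line joins the 2 CD26 classes of 1 mouse (NFs grey, WB1P purple, WB1P-Myc green) and the open circle is WB1P mouse 10, which had only CD26- cells. Every line of Il6ra rises. Its log2 difference in edgeR, fitted to groups rather than to these lines, was 1.61 to 2.11 in the 3 transplants. Lines of Il11ra1 rise in all CAFs but not in 2 of 3 NFs.

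Whether the change from NFs to CAFs depended on CD26 was tested as a difference of differences. edgeR called 0 of 10 members for WB1P, beside 0.789% of all genes with a log2 change that was higher in CD26+ than in CD26- cells and 1.07% with one that was lower, and 0 of 10 for WB1P-Myc (0.277% and 0.885%). Il11ra1 was the 1 member with an unadjusted p under 0.05 in each, at 1.26 ± 0.44 (adjusted p = 0.169) and 0.96 ± 0.43 (adjusted p = 0.453), and DESeq2's Wald test called 0. The rise of Il11ra1 in CD26+ CAFs is thus not shown to differ from its change in CD26- CAFs. For Lif the difference was 0.14 ± 0.71 and -0.18 ± 0.7 (adjusted p = 0.97 and 0.994). For Il6ra it was 0.5 ± 0.66 and 0.16 ± 0.64 (adjusted p = 0.811 and 0.995), so that its fall is not shown to differ between the classes either.

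No member was called between cells of the En1 lineage and other fibroblasts. Single libraries of En1+ and En1- fibroblasts were compared within a CD26 class over the 3 transplants, in 15584 genes. edgeR and DESeq2's Wald test both called 0 of the 10 members in CD26- and in CD26+ cells, and 0 had an unadjusted p under 0.05. Over all genes, 0.00642% were higher in En1+ cells of the CD26- class and 0.0128% of the CD26+ class, and 0% were lower. The largest differences were those of Clcf1 (-0.41 ± 0.28) and Lif (-0.4 ± 0.29) in CD26- cells, both at an adjusted p of 1.0. Among mice with both libraries, Lif was higher in the En1+ one in 2 of 10 pairs of CD26- and 2 of 9 pairs of CD26+ cells. Il6ra was higher there in 2 of 10 and 1 of 9 pairs, Il6st in 1 of 10 pairs of CD26- and Osmr in 1 of 9 pairs of CD26+ cells. Over the 10 members the count was 1 to 5 in either class, and these counts were not tested. Il6 held 490.0 ± 229 CPM (SD, n = 4) in En1- and 396 ± 217 CPM (n = 5) in En1+ libraries of CD26- WB1P CAFs, well within the spread of either.

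Further ligands and receptor chains of the family were read from 2 lists. Osm, the ligand of Osmr and mainly a product of immune cells, was called in CD26- WB1P-Myc CAFs alone (4.79 ± 1.4, adjusted p = 0.0106), at 0.198 to 29.1 CPM with mouse 95 the highest, and it was not called without mouse 95, control 82/83 or control 44/46, or with the mouse as a block (highest adjusted p over the alternatives 0.184). The immune genes Csf1r, Adgre1 and Itgam rose in the same CAFs, whose immune sums were 23.2 to 80.2 CPM against 19.6 to 25.7 CPM in CD26- NFs, and their part in the Osm difference was not tested. Of 4 other receptor chains, 3 passed the filter. Il31ra, a receptor chain for interleukin-31, fell in all 4 comparisons, with log2 fold changes of -5.05 and -3.83 in WB1P and -3.75 and -3.85 in WB1P-Myc CAFs (CD26- first) and means of 6.44 and 11.2 CPM in CD26- and CD26+ NFs and 0.186 to 0.766 CPM in CAFs. Cntfr, which binds ciliary neurotrophic factor, was called in none of these and was lower in CD26+ cells of all 3 transplants (-1.87 ± 0.43, -1.62 ± 0.36 and -0.99 ± 0.32), while Il27ra was lower there in WB1P CAFs alone (-1.19 ± 0.42, adjusted p = 0.0394). The call of Cntfr was lost in NFs without controls 49/52 or 44/46 (adjusted p up to 0.396) and in WB1P-Myc CAFs without WB1P-Myc mice 21, 67, 95 or 69 (up to 0.106), and that of Il27ra without control 44/46 or WB1P mice 10, 93, 12 or 14 (up to 0.207).

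Behind the receptors, 8 kinases, STATs and adapters were followed, of which 2 fell and 0 rose in each comparison. In CD26- cells Stat3 and Stat5b fell in both models. In CD26+ cells Stat5b and Gab1 fell in WB1P, and Stat3 and Stat5b fell in WB1P-Myc. Stat5b fell in all 4, most in CD26- WB1P CAFs, from 91.3 to 32.8 CPM (-1.48 ± 0.18, adjusted p = 2.47e-06). Stat3, named after its values were seen, was at 613 CPM in CD26- NFs and at 450.0 and 369 CPM in CD26- CAFs (-0.45 ± 0.15 and -0.73 ± 0.15, adjusted p = 0.0234 and 0.000684). Gab1, an adapter, was also lower in CD26+ than in CD26- CAFs of both models (-0.73 ± 0.27 and -1.17 ± 0.25, adjusted p = 0.0479 and 0.00157), and the first of these was called in only 7 of 20 alternatives. Stat5b was called higher in CD26+ than in CD26- CAFs of both models. Each of these calls held in 20 of 20 alternatives, at 0.82 to 0.93 in WB1P and 0.62 to 0.84 in WB1P-Myc CAFs. Single mice also ended the calls of Stat3 in CD26- WB1P CAFs (control 49/52 or WB1P mouse 35, up to 0.132) and CD26+ WB1P-Myc CAFs (control 82/83, 0.107), of Stat5b in CD26+ WB1P and WB1P-Myc CAFs (controls 49/52 or 44/46, up to 0.116) and of Gab1 in CD26+ WB1P CAFs (controls 49/52 or 44/46 or WB1P mice 93 or 12, up to 0.121).

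Of 8 inhibitors, 1 fell in every comparison, Pias1 (-0.63 to -0.82). Socs1, a suppressor of cytokine signaling, rose in CD26+ WB1P and WB1P-Myc CAFs, from 15.8 to 48.4 and 35.4 CPM (1.61 ± 0.38 and 1.16 ± 0.36, adjusted p = 0.00325 and 0.0178), and was not called in CD26- CAFs. The WB1P-Myc call was lost without control 44/46 or WB1P-Myc mouse 95 (adjusted p up to 0.0698). Socs3, the feedback inhibitor that STAT3 induces, held 532 and 536 CPM in CD26- and CD26+ NFs and 747 to 973 CPM as group means in CAFs, and none of its 4 differences passed the test (0.49 to 0.86, adjusted p 0.103 to 0.328). Socs2 and the phosphatase gene Ptpn1 were called in no comparison of CAFs with NFs. Socs2 was lower in CD26+ than in CD26- WB1P CAFs (22.1 against 57.1 CPM, -1.37 ± 0.45, adjusted p = 0.0279), though not without WB1P mice 10, 93, 12 or 35 (up to 0.105). Ptpn1 was lower in CD26+ CAFs of both models (-0.8 ± 0.2 in WB1P, -0.87 ± 0.18 in WB1P-Myc).

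Of 12 genes known to respond to STAT3, 5 rose and 2 fell in CD26- WB1P CAFs, 5 rose and 0 fell in CD26+ WB1P CAFs, 4 rose and 2 fell in CD26- WB1P-Myc CAFs, and 5 rose and 1 fell in CD26+ WB1P-Myc CAFs. The median log2 fold changes of the list were 0.49, 0.52, 0.17 and 0.26, beside medians of 0.0, 0.0, 0.02 and -0.01 over all genes. Those that rose encode acute phase and secreted proteins and a nuclear protein. Saa3, an acute phase gene, rose from 0.635 to 24.8 and 29.4 CPM in CD26- and from 0.462 to 129 and 165 CPM in CD26+ CAFs of the 2 models (log2 fold change 5.28 ± 1.1, 5.53 ± 1.11, 8.12 ± 1.25 and 8.47 ± 1.26). Hp, which encodes haptoglobin, rose in all 4 (3.95 to 5.51), and Lcn2 in 3, the exception being CD26- WB1P-Myc CAFs (1.51 ± 0.75, adjusted p = 0.116). The Lcn2 call in CD26+ WB1P-Myc CAFs (2.09 ± 0.78, adjusted p = 0.0418) was lost with the mouse as a block and without any of the 3 controls, WB1P mouse 12 or WB1P-Myc mice 67, 95 or 23 (up to 0.132), and that in CD26- WB1P CAFs with the block and without controls 82/83 or 49/52 or WB1P mouse 35 (up to 0.0855). Timp1 and Nfkbiz also rose in all 4, and Junb and Mcl1 made up those that fell. Between CD26 classes, Saa3 and Nfkbiz were called higher in CD26+ than in CD26- CAFs of both models. The calls of Saa3 held in 18 of 20 alternatives in each model. Those of Nfkbiz held in 19 of 20 for WB1P and 17 of 20 for WB1P-Myc. The Junb call in CD26+ WB1P-Myc CAFs was made in 7 of 20 alternatives. In CD26- WB1P-Myc CAFs the calls of Junb and Mcl1 were lost without control 49/52 (adjusted p = 0.123 and 0.13). The Mcl1 call in CD26- WB1P CAFs was lost without control 49/52 and with only the groups compared (up to 0.344). Timp1, Nfkbiz, Junb and Mcl1 were named after their values were seen.

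**Figure D4:**
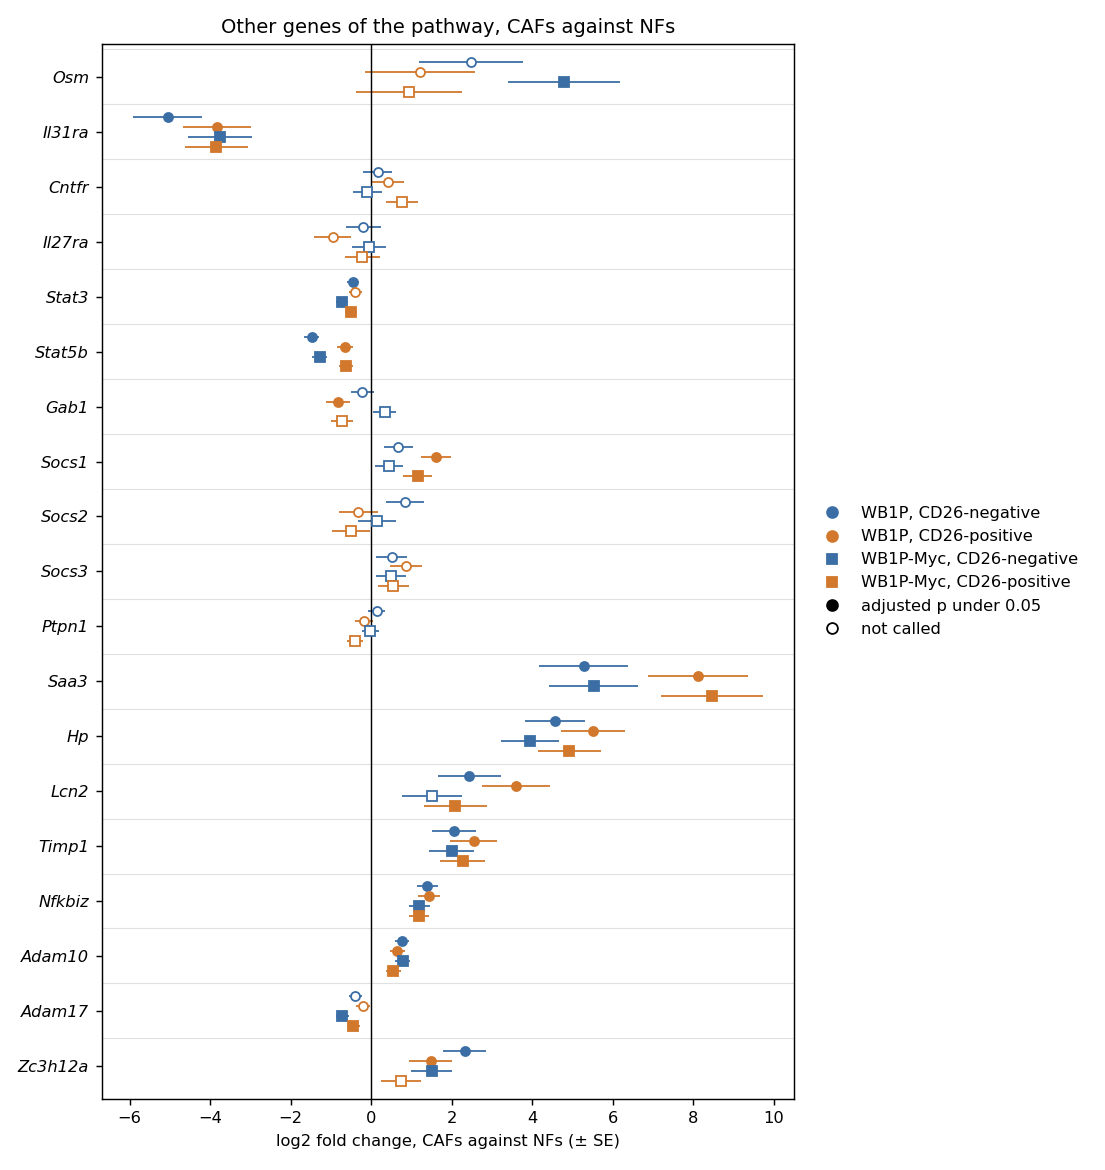
Log2 fold change against NFs of 19 genes of the pathway that are not members, with error bars of 1 SE and the same symbols as for the members: circles WB1P, squares WB1P-Myc, blue CD26-, orange CD26+, filled where the adjusted p was under 0.05. Saa3 and Hp lie far to the right and Il31ra far to the left, while Socs3 has open symbols only.

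Proteases that release the IL-6 receptor from the cell and regulators of Il6 mRNA were also measured. Adam10 rose in all 4 comparisons (0.55 to 0.78), and Adam17 fell in WB1P-Myc CAFs of both classes (-0.72 ± 0.16, adjusted p = 0.00162, and -0.44 ± 0.16, adjusted p = 0.0366), the second of these in 12 of 20 alternatives. Without control 44/46 the Adam10 call in CD26+ WB1P-Myc CAFs was lost (adjusted p = 0.0664). Of 4 regulators of mRNA stability, Zc3h12a, which encodes the RNase Regnase-1, was the only one that changed between NFs and CAFs, from 37.3 to 187 and 106 CPM in CD26- WB1P and WB1P-Myc CAFs (2.32 ± 0.53 and 1.51 ± 0.51, adjusted p = 0.00184 and 0.0252) and from 55.7 to 156 CPM in CD26+ WB1P CAFs (1.48 ± 0.53, adjusted p = 0.0338). In CD26+ WB1P-Myc CAFs it was at 93.8 CPM (0.75 ± 0.5, adjusted p = 0.244). Its call was lost in CD26+ WB1P CAFs without any of the 3 controls or WB1P mouse 93 (adjusted p up to 0.122) and in CD26- WB1P-Myc CAFs without controls 82/83 or 44/46 (up to 0.131). Zfp36 and Zfp36l1, whose products bind AU-rich elements, were called in none of these. Between CD26 classes, Zfp36 was higher in CD26+ than in CD26- WB1P CAFs (2260 against 1280 CPM, 0.82 ± 0.29, adjusted p = 0.0418), a call made in 9 of 20 alternatives. Zfp36l1 was higher in CD26+ than in CD26- CAFs (0.91 ± 0.24 and 0.79 ± 0.23, adjusted p = 0.00808 and 0.017), though not without WB1P mouse 35 in the first or WB1P-Myc mice 21, 95 or 23 in the second (up to 0.124).

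For the 2 members that varied most among the ligands and the receptors, the genes with the most similar log2 CPM over the 25 sums were named. They were Map2k1 (Pearson r = 0.924), Lmcd1 (0.923) and Cd44 (0.921) for Lif, and Diaph1 (0.94), Irf4 (0.934) and St3gal1 (0.927) for Il6ra. The sums share mice, transplants and CD26 classes, so that these values describe a pattern and are given without p.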

How the data were processed

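Fibroblasts were sorted from recipients of control, WB1P and WB1P-Myc mammary tissue, and stranded poly(A) mRNA libraries were sequenced as paired ends. The deposited values are raw whole-number read counts for each gene, without normalization by the authors. The submitters' processing notes name HISAT2 2.2.1 and GRCm38, and the counting tool, its strand setting and the annotation are not given in the sources used here. Of the gene identifiers, 55140 were found in GENCODE M21, 54820 with the same GRCm38 coordinates, and exon lengths for levels per kb came from it.

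Libraries held 5790599 to 15240328 counts. Counts were summed per mouse and CD26 class, filtered with filterByExpr, scaled by TMM and fitted over 6 groups with the quasi-likelihood test of edgeR 4.0.16 (R 4.3.3), with Benjamini-Hochberg adjustment over 16601 genes and calls at 0.05. SEs are the log2 fold change over the square root of F. En1 was compared in 15584 genes over single libraries in 12 groups, averaged over the 3 transplants. The labels give the mouse, and the CD26 classes of a mouse deviated together (r 0.237 to 0.668 across genes, median 0.444, 12 pairs). The fit with the mouse as a block used a mouse factor in edgeR for CD26 and En1, and limma 3.58.1 with an estimated correlation of 0.449 between transplants. Other alternatives were DESeq2 1.42.0 (its size factors and its Wald test), no filter, libraries as units, only the groups compared, an added limit of 2 on the absolute log2 fold change, leaving out mice 23 and 69 marked 8x8, and each mouse left out in turn. With libraries as units, libraries of the same mouse count as independent replicates, so that calls from it are too many. Correlations used log2 CPM with a pseudocount of 0.5. The models were tested on simulated counts. Among 63 pairs of libraries of one group none was a copy of another (chi-square per degree of freedom at least 14.8).

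The members and the lists were chosen with earlier results of these data known. Further genes were named as up to 3 per role list with the largest absolute log2 fold change, and others are said to be chosen after their values were seen. A separate culture or litter per mouse is not stated, so p-values measure the spread between these mice. No batch is named in the labels, and none was tested. Some genes of these lists are not reported here, and counts over those lists leave them out.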

Additional observations from a re-analysis of the deposited data

Results flagged for a closer look

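In CD26- WB1P CAFs, mouse 93 stood apart from the other 4 mice in the levels of 2 members. Lif was at 631.0 CPM there, with the next highest value at 240.0 CPM, and the gap took up 0.796 of the range of the group. Il6ra was at 27.8 CPM, with the next highest value at 13.3 CPM, a gap of 0.746 of the range. Such gaps were looked for in 40 groups of 4 or 5 mice, where chance gives about 2, so that 2 is the number chance would give. None of the 20 differences between the CD26 classes in the change from NFs to CAFs, over 10 members and 2 tumor models, passed the adjusted threshold in edgeR, with 2 at an unadjusted p under 0.05 and 0 called by DESeq2.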

How the results depend on the processing

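Of 2580 single-gene results under an alternative, 2448 stayed on the same side of the threshold, 90 lost a call, 42 gained one and 0 called values turned. The 2448 include 86 that were uncalled in both fits and differed in sign. Counts of members called moved by over 1.5 times as follows, and the cause was not tested. In CD26- WB1P CAFs against NFs (5 called) the count was 1 with the fold limit and 3 to 5 with each mouse left out. In CD26+ WB1P CAFs (5) it was 1 with the fold limit, 3 without mice 23 and 69, and 2 to 6 with each mouse left out. In CD26- WB1P-Myc CAFs (5) it was 1 with the fold limit, 3 without the filter, 2 without mice 23 and 69, and 2 to 5 with each mouse left out. In CD26+ WB1P-Myc CAFs (4) it was 1 with the fold limit, 2 with DESeq2's size factors or no filter, 7 with libraries as units, and 2 to 6 with each mouse left out. Between the models in CD26- CAFs (0), and for the difference of differences of WB1P (0), libraries as units gave 1. Between CD26 classes, NFs (0) gave 1 with DESeq2's Wald test, libraries as units or the mouse as a replicate block, WB1P CAFs (3) gave 1 with the fold limit and 6 with the replicate block, and WB1P-Myc CAFs (2) gave 0 with the fold limit, 1 without mice 23 and 69 and 1 to 3 with each mouse left out. The replicate block changed no call of a member beyond those given in the report.

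Over all genes, calls between CD26+ WB1P CAFs and NFs numbered 5566, and 2834 with only the groups compared. Calls between CD26+ WB1P-Myc CAFs and NFs numbered 5753, and 3740 without control 44/46. Between the models in CD26- CAFs they were 85, with a range of 6 (only the groups compared) to 1068 (libraries as units), and in CD26+ CAFs 0, and 9 with DESeq2. Between CD26 classes they were 692 in NFs (175 to 2143) and 3326 in WB1P-Myc CAFs (2016 to 5346, the highest with the replicate block). For the differences of differences they were 309 (80 to 1462) and 193 (40 to 743), and for En1 1 (0 to 32) and 2 (2 to 6). Ctf1 had the fewest counts of the members, 3 to 52 per sum.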
